A study of Drosophila melanogaster with 8 samples.

Results

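The insect cuticle is a layered coat of chitin fibres and chitin-binding proteins that the epidermis secretes at its apical face and renews at each moult. This account covers the genes for its proteins and for the enzymes that make, deacetylate or degrade chitin, in a map of RNase H1 contacts in *Drosophila melanogaster* wing imaginal discs. Genes were chosen by symbol alone: Cpr, Lcp, Ccp84A, Pcp, Acp65A and Edg for cuticle proteins, Twdl for the Tweedle family, Cda, *serp* and *verm* for chitin deacetylases, Cht for the chitinase family and *kkv* for chitin synthase. The authors' 2 gene tables, for control and ecd1 discs, list 86 such genes among 9826 genes with a peak in either genotype. The annotation holds 141 genes with matching symbols, so 61.0% of the annotated family was listed and 55 genes were not. The like share over all annotated genes was not counted. Shares of each gene table, beside those of all coding genes, are given below.

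RNase H1 acts on RNA paired with DNA, so a Dam methylase fused to it leaves its mark on DNA where such hybrids can be contacted. The labels give 8 libraries of discs from third-instar larvae. Control larvae carried *nub*-driven Dam alone (nub>Dam, 1 library) or the fusion (nub>Dam-RNase H1, 3 libraries). Larvae with the temperature-sensitive allele ecd1 carried the same constructs (nub>Dam; ecd1, 1 library, and nub>Dam-RNase H1; ecd1, 3 libraries). All had the heat-sensitive tub-Gal80 repressor, were raised at 25 °C, and from day 6 after egg laying were held for 24 h at 29 °C until dissection on day 7. The same shift releases the Dam constructs in every group and, in ecd1 larvae, inactivates the allele, and *nub* confines the marking to its own domain, mainly the wing pouch. Title and genotype of the ecd1 Dam-only library call it Dam-only, whereas its description calls it Dam-RNase H1; it was placed by genotype. *ecd* (*ecdysoneless*) is known for roles in ecdysone production and in pre-mRNA splicing.

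The files hold 1 peak list of each genotype (8597 control and 9559 ecd1 peaks), 1 peak per gene in each gene table, and 1 region per gene and direction in the tables of differing regions. No value belongs to a single library, the depth is unknown, and no difference below could be set against the spread between replicates, so none was tested. A peak height is the authors' score on an unstated scale and every deposited FDR is below 0.01. Heights of both lists are set side by side although the lists were made separately. A peak says nothing of the RNA level. As a check of the tissue, peaks were listed for all 6 pouch genes examined (such as *nub* and *vg*) and for 0 of 3 fat body genes, but also for 3 of 4 myoblast, 3 of 3 tracheal, 3 of 3 blood cell, 2 of 3 neuronal and 2 of 2 glial genes. Of all coding genes 48.8% were listed in control and 52.3% in ecd1. These few markers, not matched for length, thus cannot tell the tissue.

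Cuticle production follows the ecdysone pulses of each moult. Larval, pupal and adult cuticles draw on different sets of proteins, and a third-instar wing disc will lay down pupal and then adult cuticle after pupariation. Most cuticle proteins, among them the Cpr, Lcp and Ccp84A groups, share the Rebers and Riddiford domain that binds chitin. Their genes are short and many lie side by side in clusters.

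The share of these genes met by a peak was close to that of all coding genes. A control peak touched the annotated span of 60 of the 141 genes (42.6%) and an ecd1 peak that of 64 (45.4%), where the shares over all coding genes were 42.8% and 45.6%. In the gene tables, which also assign peaks from up to a few kb away, 72 of 138 coding members of the family were listed for control discs (52.2%, background 48.8%) and 74 for ecd1 discs (53.6%, background 52.3%). The coding genes of the family are shorter than others, with a median span of 1055 bp against 2161 bp. Among those under 2000 bp, 43.1% and 45.0% were listed in control and ecd1, where all coding genes of that size gave 37.8% and 40.6%. By covered length the picture was another: peaks covered 24.1% of the summed spans of the 141 genes in control and 25.8% in ecd1, against 13.7% and 13.8% of those of all coding genes, a sum in which long genes weigh most. The families differed among themselves. Peaks covered 10.7% of the summed Tweedle spans in ecd1 and slightly less in control. Cpr spans were covered over 20.3% of their length in control and 24.3% in ecd1, Lcp spans over 29.5% and 30.8%, and the *kkv* span over 46.3% and 49.2%.

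Of the 86 listed genes, 73 had a control peak, 75 an ecd1 peak and 62 both (72.1%, background 73.4%). The listed control peaks had a median height of 0.81 (quartiles 0.69 and 1.11) against 0.95 over all listed genes. The order was the other way over all control peaks on a gene of the family, with a median of 0.91 against 0.88 for the whole control list. That count takes each peak once and includes peaks on unlisted genes, and the cause of the turn was not tested. The listed ecd1 peaks had a median of 1.17 (0.88 and 1.67) against 1.21, and all ecd1 peaks on the family 1.07 against 1.10. In the 62 genes with both, the ecd1 height was larger in 52 (83.9%, background 79.7%) and smaller in 10, with a median difference of 0.30 where all genes gave 0.28. The direction thus followed that of the lists as a whole. Listed peaks are not a like-for-like pair in every gene: they had the same ends in 16 of the 62, overlapped in 31 and were separate peaks in 15. Among the 14 distinct peaks with the same ends, 13 were taller in ecd1 (92.9%, background 85.0%) by a median of 0.23 over all 14.

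**Figure D1:**
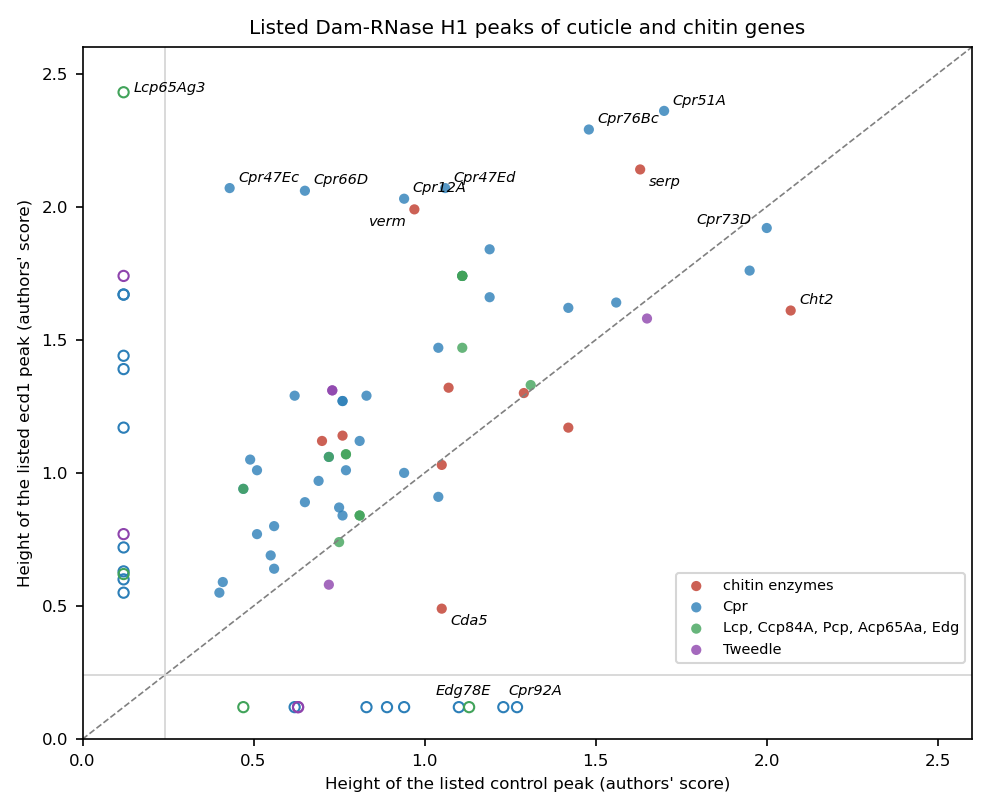
Height of the peak listed for each gene in control (x axis) and ecd1 discs (y axis), both the authors' score, with filled points for genes in both tables. Open points in the left and lower strips are the 13 genes listed only for ecd1 and the 11 listed only for control; 52 of the 62 filled points lie above the dashed line of equal height.

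By the authors' deposited tables, 44 of the 86 genes had a region higher in ecd1 (51.2%, background 57.1%) and 10 a region higher in control (11.6%, background 22.1%). Regions in both directions were given by the authors' deposited tables for 6 genes (6.98%, background 12.3%), and 38 genes had neither. The median height of the regions higher in ecd1 was 0.82 in the authors' deposited table, where all listed genes had 0.75. Regions of a height of at least 1 were given for 11 genes (12.8%, background 12.4%). The 44 genes shared 38 distinct regions, since neighbours in a cluster can be listed for the same one.

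Enzymes and structural proteins stood apart on both sides. In the authors' deposited tables all 10 listed chitin enzyme genes had an ecd1-higher region and 4 a control-higher one, against 34 (44.7%) and 6 (7.89%) of the 76 cuticle protein genes. Length moved with this. The 10 listed enzyme genes have a median span of 15374 bp and none is shorter than 3184 bp, whereas the 76 listed cuticle protein genes have a median of 994 bp. Among all genes with a peak, 67.1% of those of at least 3000 bp had an ecd1-higher and 28.4% a control-higher region, while those under 2000 bp gave 48.6% and 18.4%. In the family, 18 of the 21 listed genes of at least 3000 bp had a region higher in ecd1 and 5 one higher in control. Of the 60 under 2000 bp, 23 (38.3%) and 5 (8.33%) did. The 21 long genes include all 10 enzyme genes, so these counts partly repeat the contrast. The rest are 11 cuticle protein genes. Of these, *Cpr56F*, *Cpr76Bd* and *Cpr97Ea* had no differing region, and *Cpr66D* alone had a control-higher one. The part of length in the contrast was not tested beyond these counts.

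**Figure D2:**
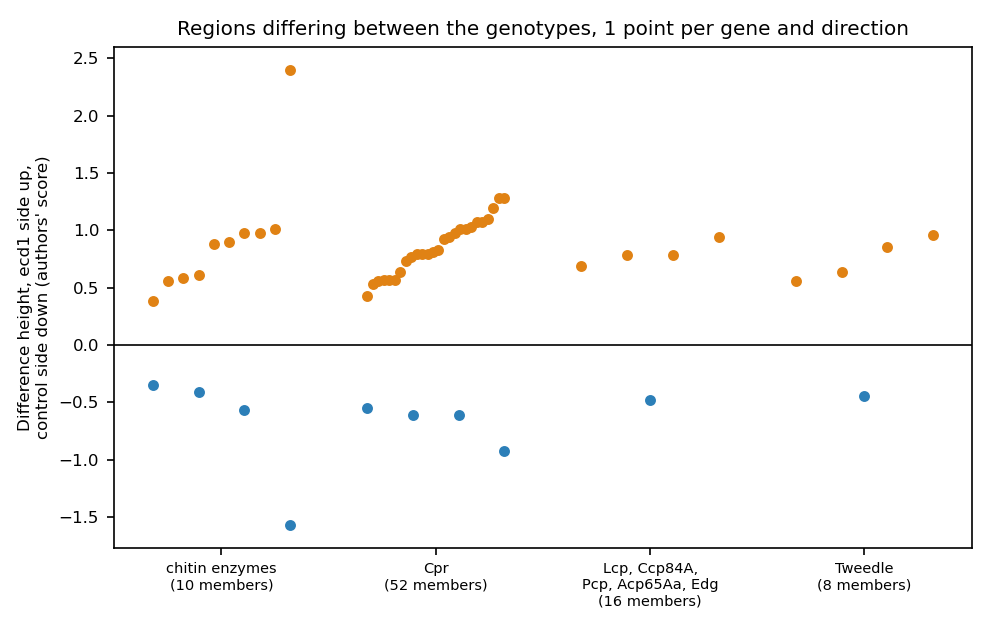
Height of the differing region listed for each gene in the authors' deposited tables (y axis, authors' score; regions higher in ecd1 are drawn upward and those higher in control downward), by gene group. The points within a group are ordered by height; the greatest are 2.40 upward and 1.57 downward, both in chitin enzyme genes.

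*kkv* (*krotzkopf verkehrt*, 3R:5378093-5392866) encodes the chitin synthase of the epidermis and trachea, which makes the polymer at the apical membrane. Its control peaks lay inside the gene (3R:5385111-5386510, height 0.98) and over its right end (3R:5387423-5394231, 1.29). In ecd1 discs the same stretch held 3 peaks of 1.42, 1.32 and 1.30, and the long control peak was broken by a short gap at 3R:5390698-5390776. Total cover of the gene was nearly equal. The authors' deposited table gives 1 region of 0.58 as higher in ecd1 inside *kkv* (3R:5389805-5390698), listed also for *CG14668* and a tRNA gene, and none as higher in control.

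*verm* (*vermiform*, 3L:19690033-19695260) and *serp* (*serpentine*, 3L:19700977-19708015) are neighbouring genes for secreted chitin deacetylases, known for restraining tube length in the trachea. Both were densely covered, *serp* over 81.1% of its span in control and 94.5% in ecd1 and *verm* over 55.5% and 62.1%. In control discs a peak of 1.64 began in *verm* (3L:19693311-19698035), a separate peak of 0.70 reached the left end of *serp* (3L:19698917-19701152), and one of 1.63 covered most of *serp* (3L:19702485-19710064). In ecd1 discs the first 2 were replaced by a single peak of 1.99 that ran from *verm* to *serp* (3L:19693531-19701152), while the last kept its ends and had a height of 2.14. Between the genes, 1537 bp from *serp*, lay an ecd1-higher region of 0.90 in the authors' deposited table (3L:19697297-19699440). Inside *verm* the authors' deposited tables give small neighbouring regions in both directions, 0.38 higher in ecd1 (3L:19692480-19693042) and 0.41 higher in control (3L:19693151-19693531).

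*Cda5* (2L:25402-65404), another chitin deacetylase gene, shows how little a single listed peak can tell of a long gene. The gene tables list a control peak of 1.05 and an ecd1 peak of 0.49, the largest fall among the 62 genes with both (by 0.56). The full lists, however, hold 7 control peaks on its span with heights of 0.61 to 1.05 and 5 ecd1 peaks, of which the tallest reached 2.75 (2L:45262-47615). No control peak met that one: the nearest lay 4848 bp away with a height of 0.94. The other 4 ecd1 peaks had heights of 0.49 to 0.91, and each was lower than a control peak that it overlapped. The authors' deposited table gives the tall peak's own interval as 2.40 higher in ecd1 and a region of 0.35 at 2L:31059-31533 as higher in control. *Cda4* (X:22583634-22632710) had 1 peak at its right end, of 0.76 in control and 1.14 in ecd1. There the authors' deposited table gives 0.61 higher in ecd1 (X:22632649-22633078). *Cda9* had no peak within 1000 bp in either list.

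Enzymes of the chitinase family break chitin down at moulting and in tissue remodelling. Peaks fell on the 5 longer of the 10 annotated genes, *Cht2*, *Cht5*, *Cht6*, *Cht7* and *Cht10*. *Cht6* (X:10016845-10050803) held 5 control and 6 ecd1 peaks, 4 of them with the same ends. At those ends the heights in control and ecd1 were 0.92 and 1.07, 0.74 and 1.07, 1.07 and 1.32, and 1.92 and 1.30, so the tallest control peak of the gene (X:10045556-10047577) was lower in ecd1. The peak found in ecd1 discs alone (X:10041395-10042170) had a height of 0.87, and the authors' deposited table gives 1.01 higher in ecd1 within it.

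*Cht7* (3L:3090985-3106958) carried the greatest region higher in control of all the genes described, 1.57 over its right end in the authors' deposited table (3L:3105525-3108514), listed also for *CG45066*. Control peaks of 1.07 and 1.42 covered 68.0% of the gene, and 3 ecd1 peaks of 1.06 to 1.36 covered 42.8%. Within the gene the authors' deposited table also gives a region of 0.98 higher in ecd1 (3L:3098911-3099140), one that is listed for 2 cysteine tRNA genes as well. *Cht5* (3R:13767549-13770732) had peaks at both ends in ecd1 (1.73 and 1.03) and at the left end alone in control (1.05). The authors' deposited table gives 0.98 higher in ecd1 at the right end. *Cht10* (2L:22999574-23025915) had 1 peak, of 1.29 in control and 1.12 in ecd1, with a region of 0.57 higher in control (2L:23024453-23024536) and, nearer its right end, one of 0.56 higher in ecd1 (2L:23025598-23026213) in the authors' deposited tables. The peak on *Cht2* itself was 1.13 in control and 1.61 in ecd1, whereas its listed control peak of 2.07 and its differing region of 0.88 in the authors' deposited table lay 4997 and 4610 bp away. The other 5 genes had no peak within 1000 bp, among them the row *Cht8*, *Cht12*, *Cht4* and *Cht9* on 2R.

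**Figure D3:**
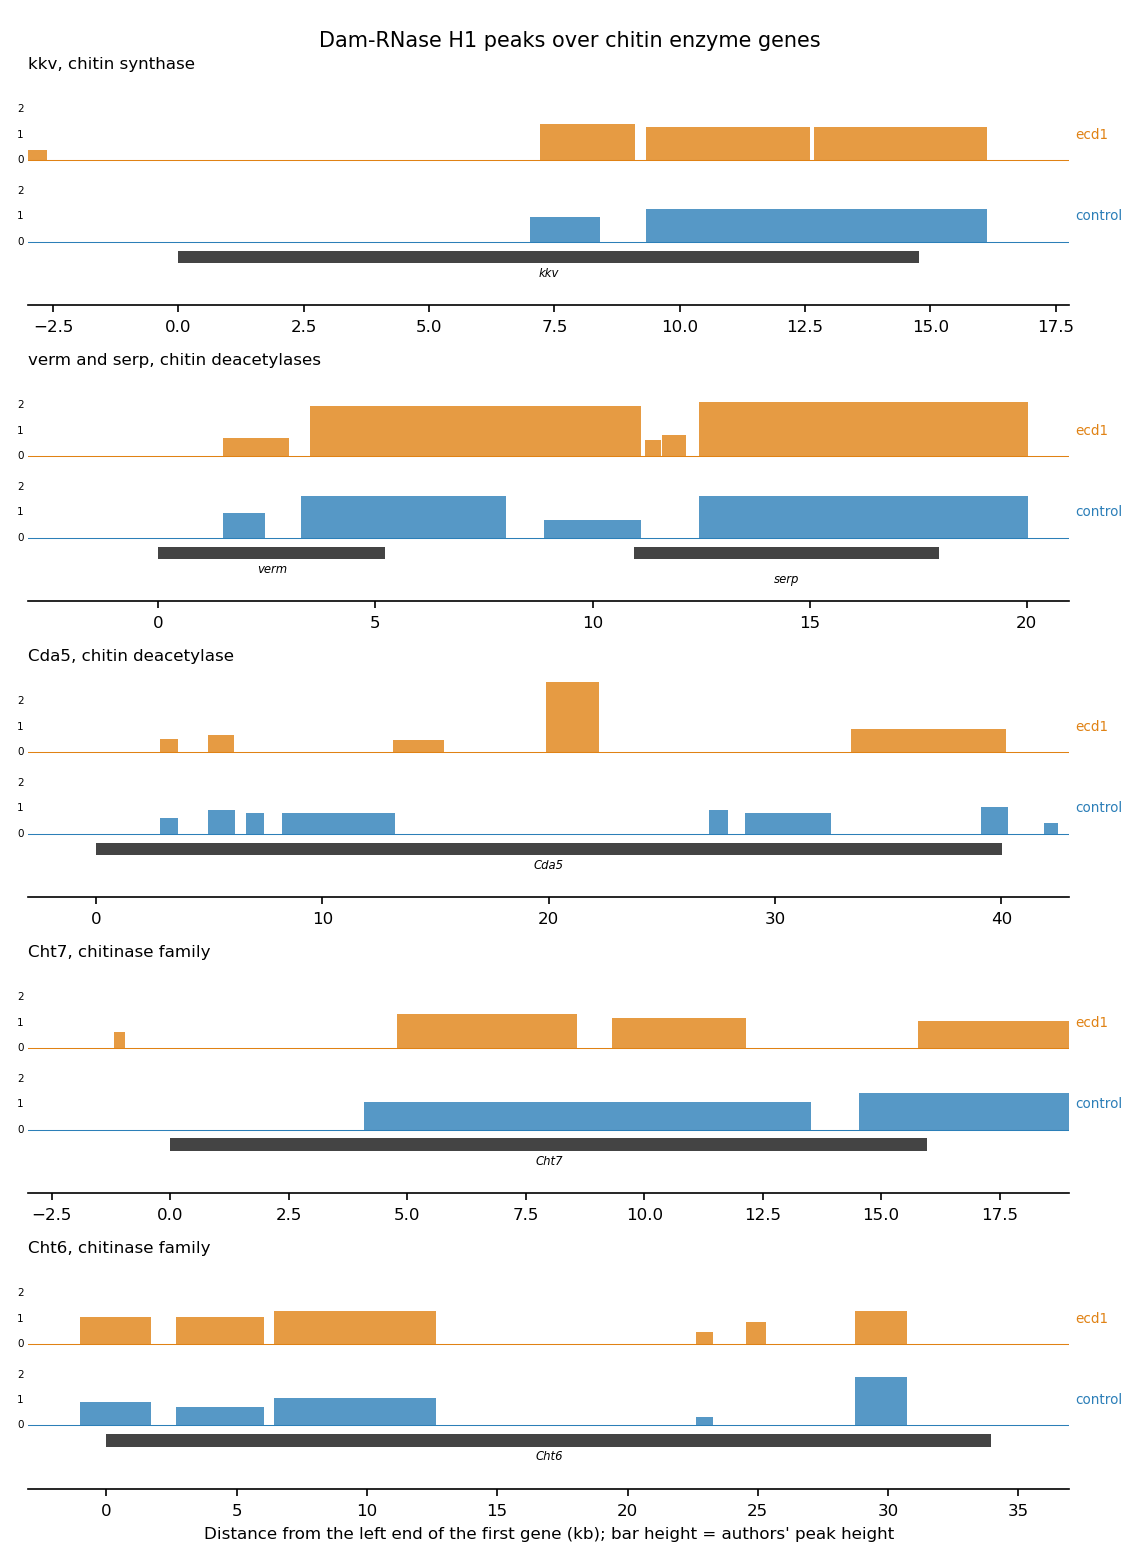
Peaks of the full lists over chitin enzyme genes, as distance from the left end of the first gene in kb (x axis); bars have the width of a peak and its height as the authors' score, with control below and ecd1 above, and dark boxes are gene spans. The ecd1 peak of 2.75 in *Cda5* has no control peak under it, and the ecd1 peak of 1.99 joins *verm* and *serp*.

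The annotated family forms 16 clusters, taken as runs of at least 3 genes no more than 25 kb apart, which hold 95 of the 141 genes and 52 of the 86 listed ones. Several clusters held long stretches without any peak on a gene in either genotype. Runs of this kind were picked for their bare genes, and how often other genes form them was not counted. Of all coding genes, 42.8% had a control peak and 45.6% an ecd1 peak on their span. In 6 of 7 such runs of at least 3 genes not a single base lay under a peak, between the genes included. The longest of these were *TwdlP* to *TwdlD* (11 genes over 20.4 kb, 3R:26620608-26641054), *Ccp84Ag* to *Ccp84Ac* (5 genes over 9.54 kb, 3R:6686728-6696271) and *TwdlX* to *TwdlZ* (3 genes over 7.78 kb, X:16731091-16738868). The others were *Cht8* to *Cht9* (4 genes, 7.64 kb, 2R:21061646-21069286), *Lcp1* to *Lcp3* with a pseudogene (4 genes, 5.98 kb, 2R:8430115-8436095) and *Lcp65Ab2* to *Lcp65Aa* (6 genes, 5.13 kb, 3L:6146674-6151803). In the seventh run, *Cpr49Ad* to *Cpr49Ag* (4 genes, 17.6 kb), control peaks covered 1956 bp and ecd1 peaks 112 bp between the genes. Without a genome sequence of this build, GATC sites and the mappability of the stretches were not analysed here.

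**Figure D4:**
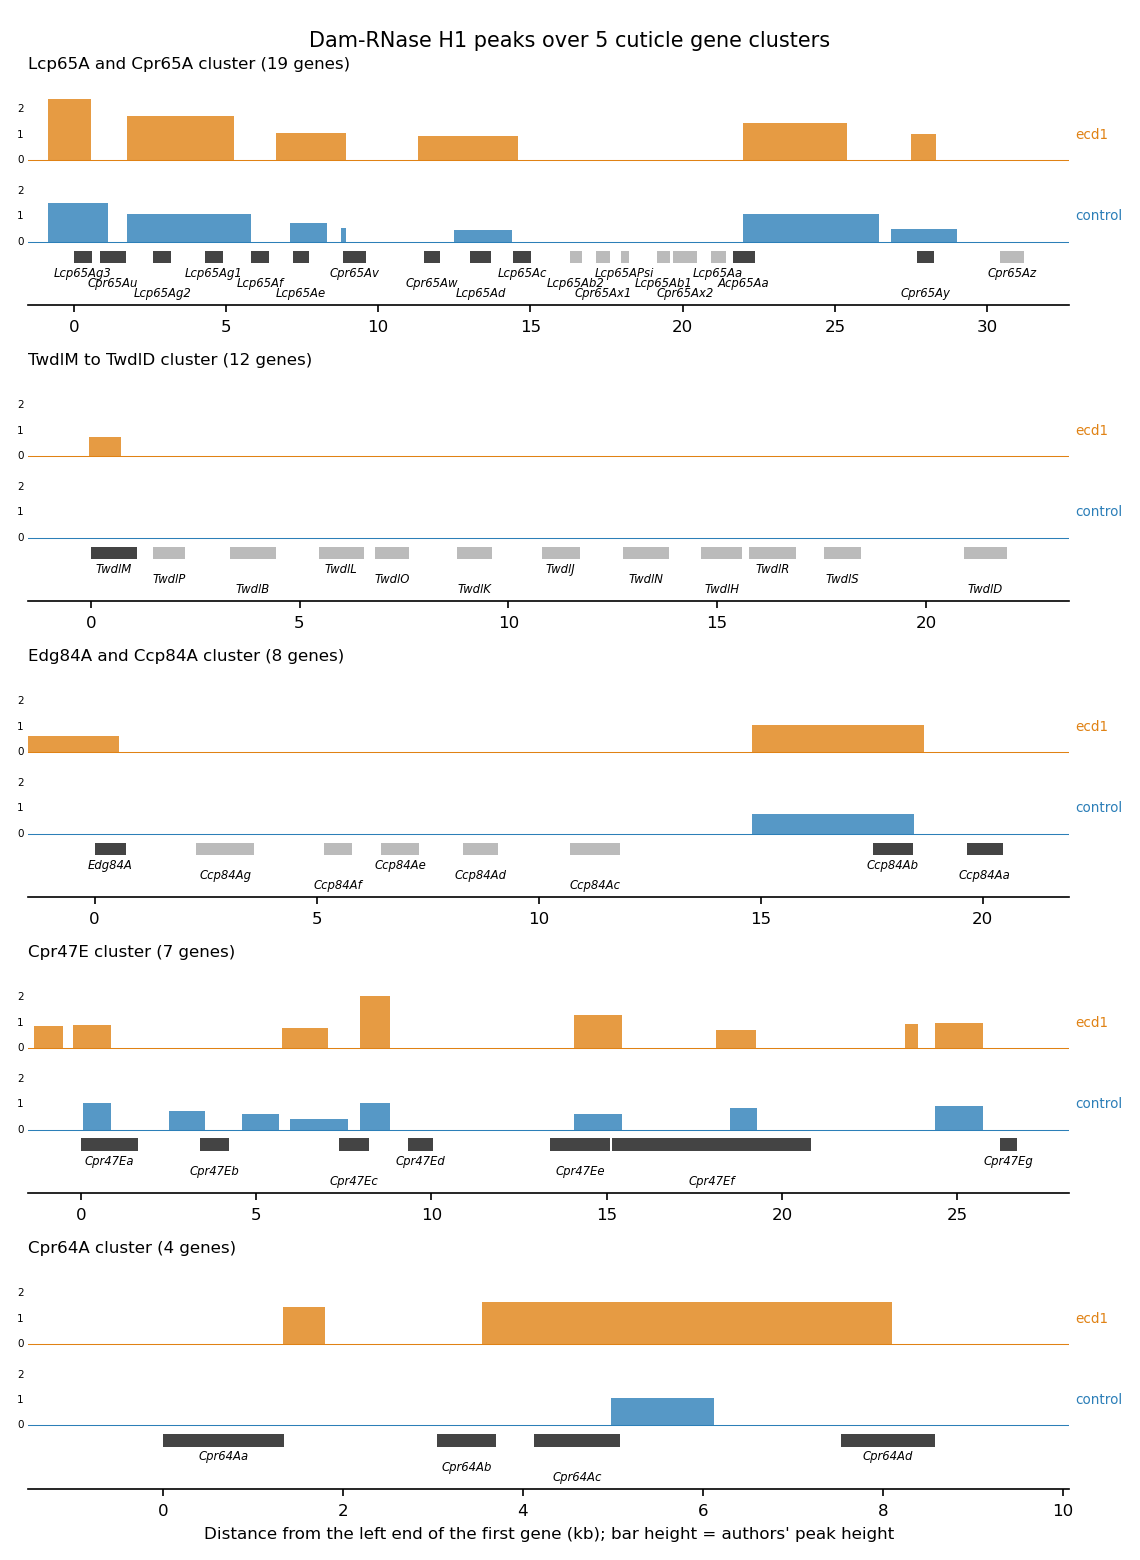
Peaks of the full lists over 5 cuticle gene clusters, as distance from the left end of the first gene in kb (x axis); bars have the width of a peak and its height as the authors' score, with control below and ecd1 above. Dark boxes are genes with a listed peak and pale boxes genes without; the *TwdlM* to *TwdlD* cluster has 1 ecd1 peak of 0.77 and no control peak.

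The largest cluster, *Lcp65Ag3* to *Cpr65Az* on 3L, has 19 genes for small larval and other cuticle proteins in 31.2 kb. Peaks covered 48.3% of it in control (7 peaks, heights 0.47 to 1.51) and 44.5% in ecd1 (6 peaks, 0.94 to 2.43), and none had the same pair of ends in both lists. They left the middle of the cluster bare and lay to both sides. At the left end a peak over *Lcp65Ag3* had a height of 1.51 in control (3L:6129549-6131514) and 2.43 in ecd1 (3L:6129549-6130953), the tallest listed ecd1 peak of all 86 genes. The next peak, listed for *Cpr65Au*, *Lcp65Ag2*, *Lcp65Ag1* and *Lcp65Af* together, had 1.11 (3L:6132148-6136207) and 1.74 (3L:6132148-6135633). Further along, heights of 0.72 and 1.06 were listed for *Lcp65Ae* and *Cpr65Av*, and 0.47 and 0.94 for *Cpr65Aw* and *Lcp65Ac*. On the right, *Acp65Aa*, which encodes an adult cuticle protein, had 1.11 and 1.47, and *Cpr65Ay* 0.49 and 1.05. Every listed pair of this cluster was thus taller in ecd1. Yet the authors' deposited table names just 2 distinct regions here, 0.78 over *Lcp65Ae* (3L:6137026-6138102) and 0.79 over *Cpr65Aw* (3L:6141695-6142404), both higher in ecd1. Some genes of this cluster carry numbered names of near-identical copies (*Lcp65Ag1* to *Lcp65Ag3*, *Lcp65Ab1* and *Lcp65Ab2*, *Cpr65Ax1* and *Cpr65Ax2*). How reads that map to more than 1 copy were counted is not given in the sources used here, so values at these genes are uncertain, and so is the absence of peaks at the Ab and Ax copies.

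The *Cpr47E* cluster on 2R (7 genes, 26.7 kb) was listed in full. Its peak over the right end of *Cpr47Ec*, 496 bp from *Cpr47Ed* (2R:11259710-11260583), had the same ends in both lists and heights of 1.06 in control and 2.07 in ecd1. The authors' deposited table gives this same interval as 1.01 higher in ecd1. A second peak with the same ends, at the facing ends of *Cpr47Ee* and *Cpr47Ef* (2R:11265821-11267176), had 0.62 and 1.29, and the authors' deposited table gives 1.07 for most of it (2R:11265986-11267176). At *Cpr47Ea* the order was the other way, with 1.04 and 0.91, and 486 bp from *Cpr47Eg* the heights were 0.94 and 1.00. *Cpr47Eb* was met by a control peak alone, of height 0.71 on the gene.

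The *Cpr64A* cluster (4 genes, 8.58 kb) lies inside the span of *CG43367* and had the widest gap in cover between genotypes among the clusters, 13.3% in control and 58.6% in ecd1. Control discs had 1 peak of 1.10 at *Cpr64Ac* (3L:4212818-4213961). In ecd1 discs a wider peak of 1.67 reached from *Cpr64Ab* across *Cpr64Ac* to *Cpr64Ad* (3L:4211384-4215939), and one of 1.44 touched the right end of *Cpr64Aa* (3L:4209173-4209640). The authors' deposited table gives both ecd1 intervals as higher in ecd1, by 1.28 and 1.19. The peak over the cluster is listed for *CG43367* too, so it cannot be assigned to the cuticle genes rather than to the gene around them.

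Other Cpr genes stand alone or in small groups. *Cpr51A* (2R:14512559-14515211) lay under the tallest listed ecd1 peak of the Cpr family, 2.36 against 1.70 in control, and the authors' deposited table gives 1.10 higher in ecd1 over its right end (2R:14514703-14518666). A peak 1015 bp from *Cpr76Bc* (3L:19528287-19528954) had 1.48 and 2.29, and the authors' deposited table gives 0.81 for the same interval. *Cpr12A* (X:13543643-13544907) had 0.94 and 2.03, with 0.94 in the authors' deposited table. *Cpr73D*, with the tallest listed control peak of the Cpr family, was nearly level at 2.00 and 1.92; that peak is listed also for *Nc73EF* and *Obp73a*. *Cpr66D* (3L:8640439-8643584) held adjacent regions of opposite sign in the authors' deposited tables, 0.55 higher in control (3L:8642490-8643268) and 1.03 higher in ecd1 (3L:8643268-8644276). The listed peaks of *Cpr66D*, 0.65 and 2.06, were at different ends of the gene.

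The smaller Cpr clusters mostly had a peak at 1 or a few of their genes. In the *Cpr62B* cluster, *Cpr62Ba* had a peak over its left end of 1.19 in control (3L:1820100-1824611) and 1.77 in ecd1 (3L:1820487-1824738). Inside *Cpr62Ba* a second peak had 1.06 in control (3L:1825630-1829396) and 1.84 in ecd1 (3L:1826394-1830319), and the authors' deposited table gives 0.83 higher in ecd1 there (3L:1826394-1827588). *Cpr67Fa1* and *Cpr67Fa2*, named as copies and therefore uncertain, share 1 peak over *Cpr67Fa2* (3L:10891376-10892660) with 0.76 in control and 1.27 in ecd1, 676 bp from *Cpr67Fa1*. The peak on *Cpr67Fa1* itself was 1.12 in control and 1.08 in ecd1. The *Cpr72E* cluster had 1 low ecd1 peak of 0.55 that overlapped *Cpr72Eb* (3L:16363966-16365192), where the authors' deposited table gives 0.57 for *Cpr72Ea* and *Cpr72Eb*. Its nearest control peak, of 0.40, lay 650 bp outside, beside *Cpr72Ea*. In the *Cpr78C* cluster, which holds *Edg78E* as well, *Cpr78Cb* had 0.65 and 0.89, and a peak 486 bp from *Cpr78Ca* that is also listed for *pzg* had 1.42 and 1.62. In the *Cpr49A* cluster an ecd1 peak of 1.01 lay over the right end of *Cpr49Ac* (2R:12389426-12390254), above a control peak of 0.51, and the authors' deposited table gives 0.73 there.

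Control-higher regions were given by the authors' deposited table for 4 of the 52 listed Cpr genes. The share was 22.1% over all genes with a peak and 18.4% over those with a span under 2000 bp. At *Cpr92A* (3R:19597502-19598955) the control list had a peak of 1.27 that met the last bases of the gene (3R:19598940-19599836), and the ecd1 list had none. The authors' deposited table gives 0.93 higher in control there, for *Cpr92A* and *CG7333*. *Cpr65Eb* and *Cpr65Ec* share a region of 0.61 between them (3L:7090173-7092408) in the authors' deposited table. The listed peaks on *Cpr65Ec* were 1.95 in control and 1.76 in ecd1, and the wider ecd1 peak (3L:7091367-7095441) reached into that region.

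The pupal and late-larval sets gave mixed pictures. Of the 7 Ccp84A genes, 2 were listed, *Ccp84Ab* and *Ccp84Aa*, for the same peak over *Ccp84Ab* with heights of 0.77 in control (3R:6699244-6702893) and 1.07 in ecd1 (3R:6699244-6703121). The peak is listed for the non-coding gene *pncr002:3R* as well. In the authors' deposited tables a region of 0.69 was higher in ecd1 beside *Ccp84Ab* (3R:6699803-6701047) and one of 0.48 higher in control 782 bp beyond *Ccp84Aa* (3R:6705685-6706307). The Edg genes were isolated as ecdysone-dependent genes of imaginal discs. *Edg78E* had a control peak of 1.13 (3L:21297664-21298365) and no ecd1 peak, *Edg84A* an ecd1 peak of 0.62 (3R:6682661-6684983) and no control peak, and *Edg91* 0.75 and 0.74. None of these 3 had a differing region in the authors' deposited tables. *Pcp*, a pupal cuticle gene nested inside *Gart* (named *ade3* in the tables), was met by control peaks of 0.42 and 1.31 and ecd1 peaks of 0.82 and 1.51. The authors' deposited table gives 0.94 higher in ecd1 at 871 bp from *Pcp*, a region that is listed for *ade3* too. The larval genes *Lcp3* and *Lcp4* shared 1 peak (2R:8436701-8437705) of 0.81 and 0.84.

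Tweedle proteins are an insect family of cuticle proteins that shape the body. Of 26 annotated Tweedle genes 8 were listed, and 20 had no peak on their span in either list. Each gene table held 6 of the 26, whose median span is 1090 bp. Of all coding genes under 2000 bp, 37.8% were listed in control and 40.6% in ecd1. In the 12-gene cluster on 3R, *TwdlM* at its edge had an ecd1 peak of 0.77 (3R:26619078-26619845) and no control peak, and the authors' deposited table gives 0.64 higher in ecd1 there. The cluster around *TwdlF* and *TwdlU*, the latter annotated as a pseudogene, had 1 listed peak for both, of 0.73 in control and 1.31 in ecd1. That peak lay on *TwdlF* and 1107 bp from *TwdlU*. Nearer *TwdlU* were a control peak of 0.95 on its span and an ecd1 peak of 1.21 at 105 bp. The authors' deposited table gives an ecd1-higher region of 0.85 over *TwdlF* (3R:4247107-4247751). *TwdlV* had the tallest listed Tweedle peak, 1.74 in ecd1 at 686 bp from the gene (3R:4253567-4254022), with no control peak within 1000 bp and no differing region. *TwdlE*, away from the clusters, had 1.65 and 1.58, and the authors' deposited table gives 0.96 higher in ecd1 (2L:7859909-7860911). On X the Tweedle genes *TwdlX*, *TwdlY*, *TwdlZ* and *Twdlalpha* lie within *goe*. At *Twdlalpha* an ecd1 peak of 0.58 had no control peak under it, and by the authors' deposited tables a region of 0.56 on the gene was higher in ecd1 and one of 0.45 at a distance of 2569 bp higher in control.

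A listing for 1 genotype alone was not always a difference in the peaks. Of the 11 genes listed for control only, 3 had an ecd1 peak on their span: *Cpr23B* (1.23 in control, 1.47 in ecd1), *Cpr64Ac* (1.10 and 1.67) and *Lcp65Ad* (0.47 and 0.94). Of the 13 listed for ecd1 only, *Lcp65Ag3* had a control peak on its span (1.51), and the listed ecd1 peak of 3 of the 13 overlapped a control peak. For the other 8 control-only genes, among them *Cpr92A*, *Edg78E*, *Cpr66Cb* (0.94), *Cpr30F* (0.89) and *Cpr49Ae* (0.83), the ecd1 list had no peak within 1000 bp. For the other 12 ecd1-only genes, among them *TwdlV*, *Cpr64Ab*, *Cpr64Ad*, *Cpr64Aa* and *Cpr65Eb* (1.17), the control list had none within that distance, although the long ecd1 peak listed for *Cpr64Ab* and *Cpr64Ad* holds the control peak of 1.10 at *Cpr64Ac*. Overlap between the lists was a little above that of all peaks. Of 77 distinct control peaks on a gene of the family 68 overlapped an ecd1 peak (88.3%, against 83.5% of all control peaks), and of 80 ecd1 peaks 65 overlapped a control peak (81.2%, against 76.8%).

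Genes of the family outside the gene tables were not all free of signal. *Cpr49Ah* (2R:12413962-12415170) is in neither gene table, yet a peak of 1.68 in control (2R:12411241-12416233) and 2.06 in ecd1 (2R:12410336-12416138) covered it whole. The authors' deposited table gives 1.14 higher in ecd1 inside the gene (2R:12414154-12414771). A further 4 such genes, *Cpr49Aa*, *Cpr49Ab*, *Cpr50Cb* and *Cpr72Ec*, had regions higher in control of 0.33 to 0.36 in the authors' deposited table, 111 to 415 bp outside the genes. Of the 55 unlisted genes, 5 had a control peak and 8 an ecd1 peak within 1000 bp.

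Other genes of chitin synthesis and matrix organisation were counted beside the family. Of 30 matched genes 22 had a listed peak, and 15 of these had an ecd1-higher region (68.2%, background 57.1%) and 10 a control-higher one (45.5%, background 22.1%) by the authors' deposited tables. Of these 22 genes 14 span at least 3000 bp, and all genes of that length with a peak gave 67.1% and 28.4%. The precursor enzyme gene *Gfat2* (glucosamine synthesis) had an ecd1-higher region of 0.91 in the authors' deposited table. Among chitin-binding matrix proteins the authors' deposited table gives 1.14 for *obst-B* and 1.00 for *Gasp*, both on the genes and higher in ecd1. Its largest region for this set, 1.16 for the hexosaminidase gene *Hexo2*, lay 1634 bp off. On the control side the authors' deposited table gives 1.13 for the chitinase-like growth factor genes *Idgf1* and *Idgf2*, which share the region, and 0.97 for *exp*, which is needed for chitin deposition. *Gnpnat*, which acts in the same precursor pathway, had regions of 0.74 higher in control and 0.73 higher in ecd1 in the authors' deposited tables.

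Of 33 genes for cuticle hardening and pigment 21 had a listed peak, with an ecd1-higher region in 9 (42.9%, background 57.1%) and a control-higher one in 8 (38.1%, background 22.1%) by the authors' deposited tables. Of these 21 genes 10 span at least 3000 bp. *b* (*black*, beta-alanine synthesis), in neither gene table, had 0.90 and *Vajk4* 0.88 on the ecd1 side in the authors' deposited table. The catecholamine pathway genes *ple* (tyrosine hydroxylase) and *Pu* (GTP cyclohydrolase) had ecd1-higher regions of 0.85 and 0.80 in the authors' deposited table. Regions higher in control that lay on a gene included 0.71 at *Pu*, 0.67 at *yellow-b* and 0.42 at *stw*, the cuticle laccase gene, in the authors' deposited table. Further ones lay outside their genes: 0.60 at 2664 bp from *e*, 0.43 at 1756 bp from *Vajk2* and 0.30 at 712 bp from *ple*.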

How the data were processed

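The authors deposited, per the file headers, a peak height and an FDR (a q-value) for each peak of 1 list per genotype, for 1 peak per gene, and for 1 differing region per gene and direction. The height is a score deposited by the authors with no stated scale or log base. The build is BDGP6, per the submitters' processing notes; for the aligner, peak caller, handling of replicates and use of the Dam-only libraries, details were not given in the sources used here. Groups came from the genotype labels. Gene identifiers were looked up in RefSeq's annotation (assembly Release 6 plus ISO1 MT), where 10419 of 10500 (99.2%) had an entry; this gives spans without strand or exons. Spans were set against peaks with Python 3.11.15 and pandas 2.3.3; touching means at least 1 shared bp, and interval routines were tested on simulated data. Cover counts bases under a peak. Genes and lists were chosen with earlier results of these data known. Named, per family and cluster, are up to 4 genes with the greatest height in each difference table, up to 3 with the tallest listed peak per genotype, the 5 tallest listed in 1 genotype, and *kkv*, *serp*, *verm* and *Cda5*; of the other lists, those among the 6 greatest that are described. Unlisted genes were described after their values were seen. No library has a value of its own, so no test was run. Alternatives changed height, FDR, gene assignment, unit of counting, overlap and cluster gap. No sequence of this build was used here.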

Additional observations from a re-analysis of the deposited data

How the results depend on the processing

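Most counts stayed within 1.5 times under the alternatives run; the exceptions follow. With heights of at least 1, 29 genes were listed in control, 23 in both tables, 11 had an ecd1-higher region and 1 a control-higher one. With genes kept where the span met the peak or region, the counts were 46 in control, 37 in both and 6 with a region higher in control. The median control height of 0.81 became 0.83 with each peak counted once, 0.92 for peaks on the span and 0.94 for the tallest peak within 1000 bp. The median ecd1 height of 1.17 became 1.13 for peaks on the span and 1.24 for the tallest. The median difference of 0.30 became 0.26 with each pair once, 0.23 at peaks with the same ends and 0.28 on the span. In these alternatives the median height difference kept its sign, and more genes had an ecd1-higher than a control-higher region throughout. The order of the listed counts, 75 in ecd1 and 73 in control, did not always hold. With an FDR under 0.001 the counts were 54 in ecd1 and 59 in control, and with each distinct peak once 61 and 63. With heights of at least 1 (51 and 29) and on the span (54 and 46) ecd1 kept the larger count. Against the background one order did turn: listed control peaks of the family were lower than those of all genes (0.81 and 0.95), while all control peaks on the family were slightly taller than the whole list (0.91 and 0.88). The cause of these shifts was not tested. Leaving out a library was not possible, since no file holds values per library. No paired analysis was possible because the tables carry no column per replicate. Depth is unknown, so a gene without a peak may have gone undetected.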

Other observations

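Genes that shape the apical matrix or time cuticle genes were counted as further sets chosen with earlier results known. Zona pellucida proteins tie the epidermis to the cuticle. All 12 with a listed peak, of 13 matched, had a region higher in ecd1 by the authors' deposited table, and 8 also one higher in control, where the shares over all genes with a peak were 57.1% and 22.1%. All 12 span at least 6670 bp, and genes with a peak and a span of at least 3000 bp gave 67.1% and 28.4%. The median span of the 12 is 14835 bp, so those shares are not matched to them in length. The authors' deposited table gives 1.11 for *nyo* (whose tallest peaks were 1.25 in control and 2.02 in ecd1), 0.98 for *dy* and 0.95 for *neo* on the ecd1 side, and 0.96 for *neo* and 0.74 for *dpy* on the control side.

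Of 19 regulators of cuticle gene timing 17 had a listed peak, 15 with an ecd1-higher region (88.2%) and 8 with a control-higher one (47.1%) by the authors' deposited tables. All 17 span at least 3514 bp, and the nearest shares counted are the 67.1% and 28.4% of genes of at least 3000 bp. The median span of the 17 is 39895 bp, and no share for genes of that length was counted. The greatest ecd1-higher regions of this set in the authors' deposited table were 1.79 in *br*, 1.51 in *ftz-f1* and 1.42 in *Eip75B*. Next came 1.39 in *EcR* and 1.36 in *Eip78C*. *grh*, an epidermal factor for cuticle genes, had listed peaks of 2.14 (control) and 1.81 (ecd1). Within *grh* a region of 1.37 was higher in control and one of 0.99 higher in ecd1 by the authors' deposited tables. *Hr38*, a nuclear receptor gene linked to adult cuticle, had tallest peaks on its span of 1.63 in control and 1.72 in ecd1. An ecd1 peak of 2.91 lay 1212 bp outside *Hr38*, and the authors' deposited table gives 1.18 higher in ecd1 there.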
